A study of Mus musculus with 5 samples.

Results

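Kit, Flt3 and Csf1r encode the class III receptor tyrosine kinases of blood-forming cells, and their transcripts were followed through 4 sorted stem and progenitor gates of mouse bone marrow. The members were the 3 genes with these symbols among the 27998 genes of the matrices, and all 3 were present. Cells came from wild-type C57BL/6 mice described as healthy controls, without treatment or genetic change in any group. All gates took cells without lineage antigens and with KIT. Those that also carried SCA1 form the LSK gate, in which haematopoietic stem cells (HSC) are found. Cells without SCA1 were divided by CD34 and by CD16/32: the gate of common myeloid progenitors (CMP) took CD34 alone, that of granulocyte/monocyte progenitors (GMP) took both antigens, and that of megakaryocyte/erythroid progenitors (MEP) took neither. Since KIT protein was a criterion everywhere, the presence of Kit transcripts in all of them is given by the sort. Age, sex and the number of mice behind each gate are not given in the labels.

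KIT binds stem cell factor, the product of Kitl, and is required for the upkeep of HSC, for early erythroid and megakaryocytic cells and for mast cells. FLT3 binds FLT3 ligand and is known for multipotent cells that have begun to turn to the lymphoid and dendritic lineages. CSF1R binds CSF1 and IL34 and is the receptor of the monocyte and macrophage lineage. All of them share an extracellular part of immunoglobulin-like domains and a split kinase domain, and pass their signal to PI3-kinase, RAS and SRC-family kinases.

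Each of the 4 gates was 1 library after the 2 CMP samples, whose matrices were identical, were counted as 1 sample. The cells kept were 10870 LSK, 3713 CMP, 8027 GMP and 6284 MEP cells, with between 26919088 and 80273121 unique molecular identifiers (UMIs, each standing for 1 captured transcript) per library. The median depth rose from 5991.5 UMIs per cell in LSK over 6904 in CMP and 9100 in GMP to 12578 in MEP. There was no replicate, so no difference was tested, and a difference between gates and one between libraries cannot be told apart. Intervals are at 95% and cover counting error only. Gate antigens followed the labels: Ly6a, which encodes SCA1, had 78.2 CPM (UMIs of the gene per 1000000 UMIs of the library) in LSK and at most 1.49 CPM elsewhere, Cd34 had 0.498 CPM in MEP and at least 118 CPM in the other gates, and Fcgr3 had 208 CPM in GMP and at most 13.9 CPM elsewhere. Fcgr2b, the other CD16/32 gene, separated CMP from GMP less, with 61.5 CPM in GMP, 33.8 CPM in CMP, 6.31 CPM in LSK and 0.336 CPM in MEP. Between 36 and 130 cell barcodes were shared by any pair of gates.

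Kit and Flt3 lie on chromosome 5 (GRCm38, GENCODE M21). Kit spans 75574916 to 75656722 on the plus strand, and Flt3 spans 147330741 to 147400489 on the minus strand. Both are protein-coding, with 21 and 24 exons in the transcript listed as 201. The RefSeq promoter table (GRCm38.p6) held 2 of the 3 members. The bases upstream of the annotated gene are shown for these because both genes had their highest library level in LSK but spread differently over the other gates. They are written on the strand of the gene from 5′ to 3′, and capitals mark a match to one of 6 short motifs of blood transcription factors.
Kit, chr5:75574737-75574915, plus strand: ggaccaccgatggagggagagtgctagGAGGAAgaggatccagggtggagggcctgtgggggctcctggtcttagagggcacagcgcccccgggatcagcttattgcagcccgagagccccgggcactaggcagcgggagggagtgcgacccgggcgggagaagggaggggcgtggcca
Flt3, chr5:147400490-147400739, minus strand: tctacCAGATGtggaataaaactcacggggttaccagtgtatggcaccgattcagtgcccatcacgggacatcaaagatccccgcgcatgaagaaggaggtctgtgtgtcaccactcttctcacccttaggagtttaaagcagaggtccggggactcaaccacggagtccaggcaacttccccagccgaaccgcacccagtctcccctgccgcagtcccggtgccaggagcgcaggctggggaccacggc
Both strands of the 250 bases before the RefSeq start were searched for GATAA (GATA factors), GAGGAA (ETS factors such as PU.1), TGTGGT (RUNX), CANNTG (E-box), TTGCNNCAA (C/EBP) and TGACAG (MEIS); of the Kit window only the 179 bases outside the GENCODE gene are printed. Kit had 1 match to GAGGAA, which begins 223 bases before the start, and Flt3 had 1 match to CANNTG, 245 bases before it. Of 27025 promoters of the same length, 23.1% held GAGGAA and 66.0% held CANNTG. The other motifs had no match in these windows and were held by 23.0% (GATAA), 14.2% (TGTGGT), 1.78% (TTGCNNCAA) and 16.0% (TGACAG) of all promoters.

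Csf1r, also protein-coding, with 22 exons, lies on the plus strand of chromosome 18, from 61100598 to 61132149.

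The receptors had 3 different orders over the gates. Kit was measured at 100.5 CPM (98.2 to 103) in LSK, 46.8 CPM (44.2 to 49.4) in CMP, 34.9 CPM in GMP and 46.8 CPM in MEP, from 7553, 1259, 2562 and 3760 UMIs. It was therefore highest in the stem cell gate and present in all gates, and CMP and MEP had the same level within counting error. Flt3 was measured at 131 CPM (129 to 134) in LSK, 39.9 CPM (37.5 to 42.4) in CMP, 4.06 CPM in GMP and 0.0747 CPM in MEP, where 6 UMIs were seen in 6284 cells. Csf1r was measured at 1.32 CPM in LSK, 13.4 CPM in CMP and 19.4 CPM in GMP, from 99, 360 and 1423 UMIs, and had no UMI in MEP. Its order thus ran from GMP over CMP to LSK, and the intervals of neighbouring gates did not overlap.

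**Figure D1:**
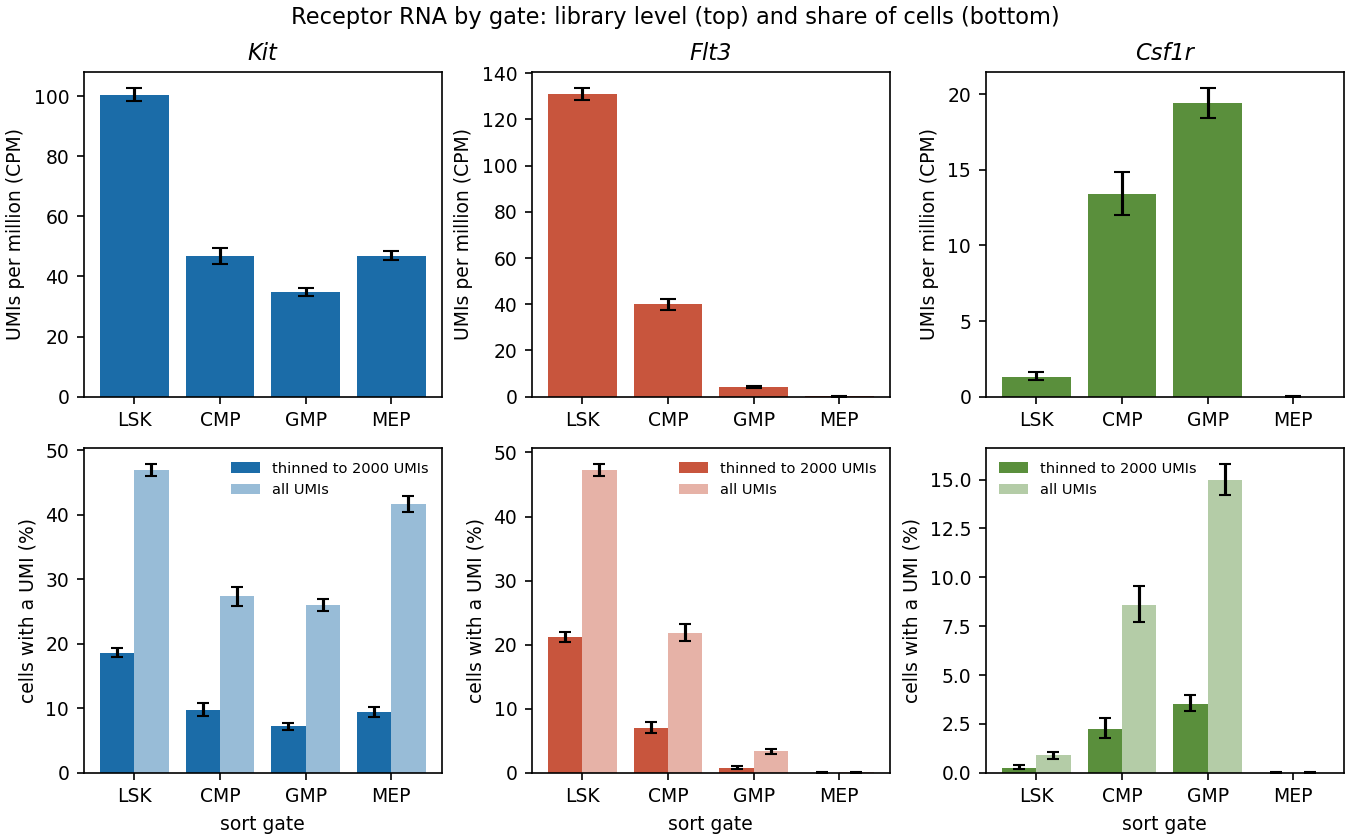
Library level in CPM (top row) and share of cells with at least 1 UMI (bottom row) of Kit, Flt3 and Csf1r in the 4 gates, 1 library each; bars carry 95% counting intervals (Poisson for levels, Clopper-Pearson for shares), and dark bars in the bottom row come from cells thinned to 2000 UMIs. Kit is seen in every gate, Flt3 falls from 131 CPM in LSK to 0.0747 CPM in MEP, and Csf1r is highest in GMP at 19.4 CPM.

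Between libraries, a gene was counted as higher where it had 50 CPM or more in the higher one and a ratio of 2 or more. By this rule Kit and Flt3 were higher in LSK than in CMP, with log2 ratios of 1.10 (1.02 to 1.19) and 1.72 (1.63 to 1.81). Of the 3056 genes that reached 50 CPM in either library, 6.12% were higher in LSK and 2.72% were higher in CMP. This background leaned on the scaling: of all genes past the rule, 69.3% were higher in LSK with library totals and 25.3% with TMM factors, 64.0 and 24.1% in the contrast with GMP, and 54.8 and 23.9% in that with MEP. Against GMP, the log2 ratios were 1.52 (1.46 to 1.59) for Kit and 5.01 (4.85 to 5.18) for Flt3, both past the rule, as were 13.3% of genes in that direction and 7.49% in the other. Against MEP they were 1.10 (1.04 to 1.16) and 10.78 (9.65 to 12.22), with a background of 16.4% and 13.5%. The 2-fold difference of Kit rested on the scaling: with median-of-ratios factors, which moved the median of all genes by -0.38 to -0.54 in these contrasts, the log2 ratios of Kit were 0.73, 0.99 and 0.58. With TMM factors they were 0.79, 1.08 and 0.67.

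Csf1r stayed under 50 CPM in every library and so could not pass the rule in any comparison. Its log2 ratio was -3.34 (-3.68 to -3.02) for LSK against CMP and -3.88 (-4.19 to -3.59) for LSK against GMP, which makes it 10.2-fold and 14.7-fold lower in LSK. CMP had 1.45-fold less than GMP (1.29 to 1.63). With the MEP count of 0 set to a floor of 3, Csf1r was 35.2-fold higher in LSK, 358-fold higher in CMP and 519-fold higher in GMP. These values are not lower limits: the exact counting intervals reach down to 28.1, 290 and 422.

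Among the 3 lineage-restricted gates no member passed the rule. Kit was 1.34-fold higher in CMP than in GMP and 1.34-fold higher in MEP than in GMP, and its log2 ratio of CMP to MEP was -0.002 (-0.095 to 0.090). Flt3 fell steeply without reaching 50 CPM in any of these libraries: CMP had 9.82-fold more than GMP (8.63 to 11.2), CMP had 534-fold more than MEP (244 to 1458) and GMP had 54.3-fold more than MEP (24.7 to 149). These ratios to MEP rest on its 6 UMIs and on the weighting of cells: the log2 ratio of Flt3 to MEP was 10.78 in LSK, 9.06 in CMP and 5.76 in GMP from library sums, and 9.27, 7.48 and 4.26 from the mean over cells of CPM per cell. Of all genes with 50 CPM, 4.03% were higher in CMP and 2.92% in GMP in that pair. The shares were 11.3% in CMP and 10.5% in MEP, and 12.2% in GMP and 12.1% in MEP, for the pairs with MEP.

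Shares of cells carried the same orders once depth was made equal. After each cell was thinned to 2000 UMIs, 18.6% of LSK cells (17.9 to 19.4) had a Kit UMI, against 9.79% of CMP, 7.19% of GMP and 9.44% of MEP cells. Without thinning the shares were 46.9, 27.3, 26.0 and 41.7%, so the high MEP value went with the greater depth of that library. Flt3 was seen in 21.2% of thinned LSK cells (20.4 to 21.9), 7.07% of CMP cells, 0.785% of GMP cells and 0.0318% of MEP cells, and unthinned in 47.3, 21.8, 3.35 and 0.0796%. Csf1r was seen in 0.267% of thinned LSK cells, 2.26% of CMP cells and 3.54% of GMP cells, and unthinned in 0.892% and 8.59% of LSK and CMP cells and in 1204 of 8027 GMP cells. In MEP, 0 of 6284 cells had a Csf1r UMI, which allows a share of up to 0.0477% by a floor of 3 counts and of up to 0.0587% by the exact interval. Thinning to 2000 UMIs left out 36 CMP cells and none of the other gates. Repeat UMIs were few: after thinning and without doublets, 0.756% of LSK cells had 3 or more Flt3 UMIs and 0.332% had 3 or more Kit UMIs, with at most 5 and 4 in a cell.

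The 5245 erythroid-like MEP cells, with a median of 13376 UMIs, had no UMI of Flt3 or Csf1r, but their library held 6 and 0 such UMIs in all, so this says nothing of free RNA in the other gates. Within LSK and CMP, Flt3 was low in some clusters: 2 Flt3 UMIs were found in 49 LSK cells of cluster 19 (4.24 CPM, median 7660 UMIs), and 1 Flt3 UMI in 206 CMP cells of cluster 9 (0.754 CPM, median 6178 UMIs). In LSK, barcodes with 1 to 100 UMIs, taken as free RNA, held Kit at 88.2 CPM and Flt3 at 119 CPM.

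To see which cells carried the transcripts, cells of each gate were clustered without the 3 receptor genes, and a cluster was named only from its markers. Clusters numbered 75, of which 67 had 50 or more cells and 53 could be named. Unnamed clusters held 1098 of 9925 LSK cells, and 1693 of 3603 CMP cells and 4157 of 7512 GMP cells, and these are described by their leading genes.

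In LSK, Kit and Flt3 ran against each other from HSC/multipotent-like to lymphoid-primed-like cells. The 5212 HSC/multipotent-like cells had 127 CPM of Kit (123 to 132) and 96.6 CPM of Flt3 (92.9 to 100.4), while the 2902 lymphoid-primed-like cells had 70.6 CPM of Kit (67.2 to 74.2) and 213 CPM of Flt3 (207 to 219). In thinned cells the shares were 23.1% with Kit and 16.6% with Flt3 in the HSC/multipotent-like class and 13.6% and 35.9% in the lymphoid-primed-like class. Csf1r was at 0.523 CPM in the former and 2.90 CPM in the latter. The 680 megakaryocyte-like LSK cells had 107 CPM of Kit, 23.0 CPM of Flt3 (19.3 to 27.2) and no Csf1r UMI. So a low Flt3 level did not go with a low Kit level.

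Flt3 differed widely even among HSC/multipotent-like clusters. Cluster 13, in which 12 of the 12 listed HSC/multipotent markers were raised, had 12.2 CPM (7.34 to 19.0) from 19 UMIs in 288 cells, the lowest Flt3 level of the 18 LSK clusters with 50 or more cells. Cluster 2, led by Procr and Cdkn1c, had 59.9 CPM (53.8 to 66.5), and cluster 1, the largest, had 115 CPM (108 to 122). Kit spanned less in the same clusters, with 120, 137 and 124 CPM. The highest Flt3 level, 335 CPM (318 to 354), was in lymphoid-primed-like cluster 5, led by Ccr9, a homing receptor of thymus-seeding cells, and 48.2% of its thinned cells had a Flt3 UMI against 2.08% in cluster 13. Kit was lowest in lymphoid-primed-like cluster 4, at 61.4 CPM (55.6 to 67.5).

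A small LSK cluster stood apart for Kit. Cluster 18 held 66 cells with a median of 3112.5 UMIs, against 5991.5 over the gate, and was led by Dst, Lpp and Atxn1, which are long genes. Kit was at 323 CPM (252 to 408) in it, from 70 UMIs, while Flt3 was at 102 CPM. The part of depth or RNA quality in this value was not tested.

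**Figure D2:**
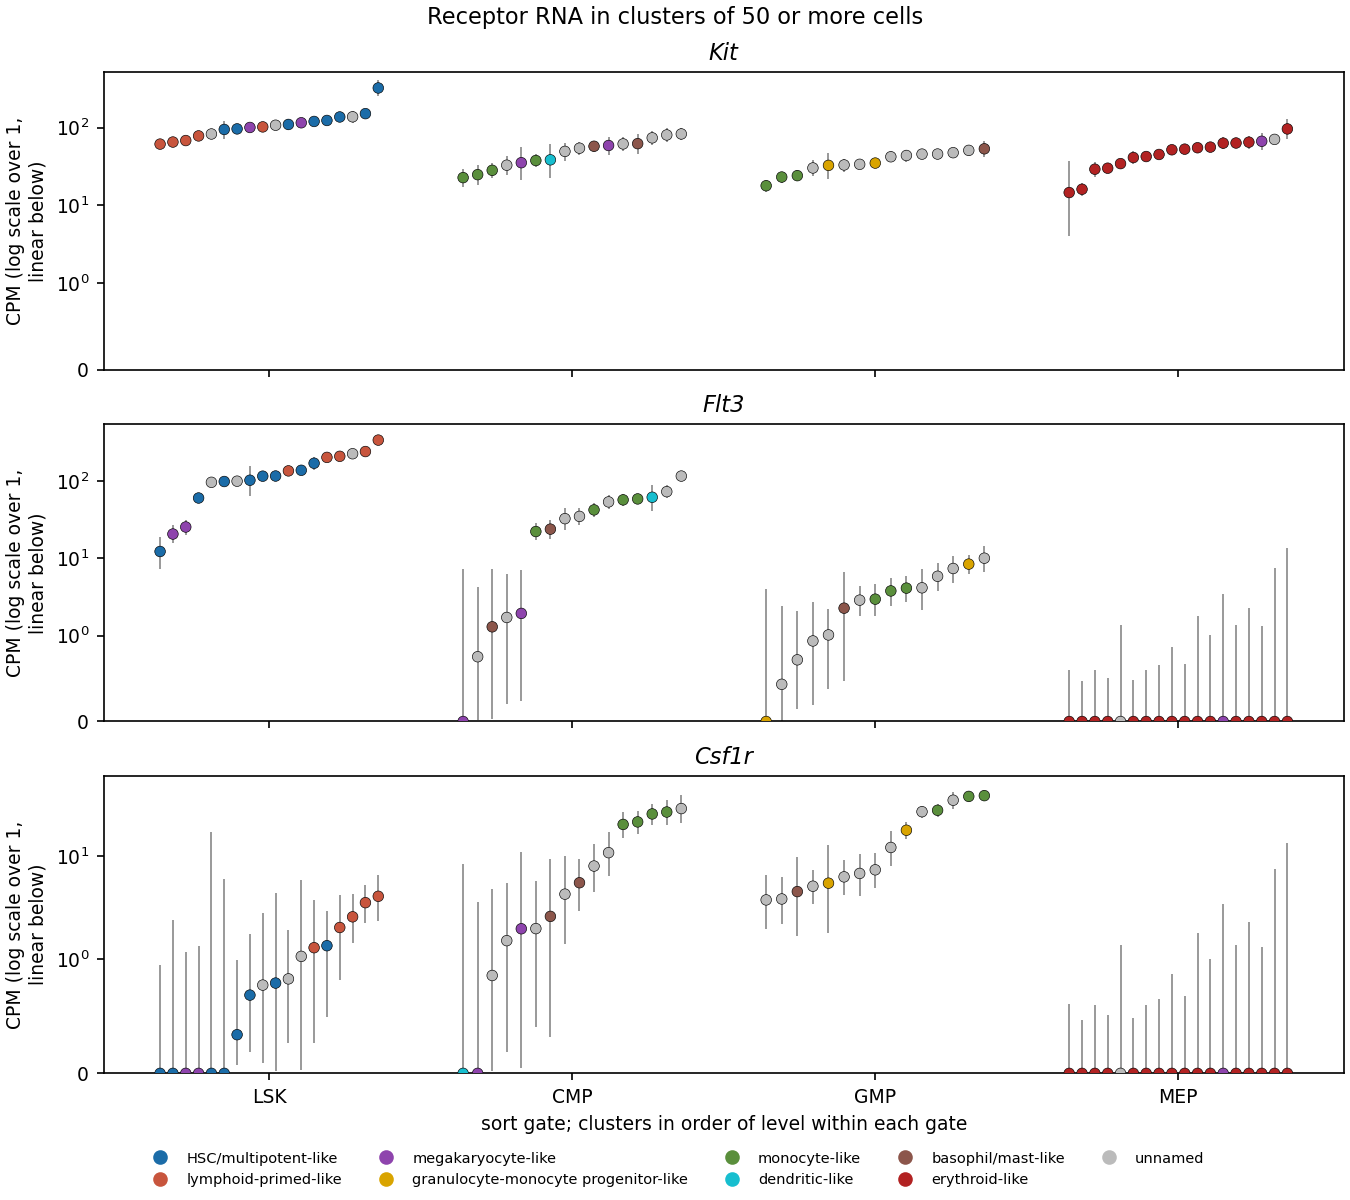
Level of Kit, Flt3 and Csf1r in CPM (vertical axis, logarithmic above 1 and linear below) in the 67 clusters of 50 or more cells, set in order of level within each gate; colours give the class named from markers and lines the 95% Poisson interval. Flt3 spans 12.2 to 335 CPM among LSK clusters and lies at 0 in all 18 MEP clusters shown, and the monocyte-like clusters are among the highest for Csf1r in CMP and GMP.

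In CMP, Flt3 split the gate. Of 16 clusters with 50 or more cells, 5 had less than 2 CPM of Flt3: both megakaryocyte-like clusters, basophil/mast-like cluster 14, and the unnamed clusters 2 and 9. The other 11 had 22.1 CPM or more. Unnamed cluster 8, led by the chemokine genes Ccl4 and Ccl3 with Id3 and Irf8, had the highest levels of Flt3, 115 CPM (98.6 to 133), and of Csf1r, 28.9 CPM (21.0 to 38.8), with Kit at 32.9 CPM. In the 1078 monocyte-like CMP cells, Csf1r was at 23.4 CPM (20.5 to 26.6), Flt3 at 44.5 CPM and Kit at 28.9 CPM (25.6 to 32.4). The 257 megakaryocyte-like cells had 51.1 CPM of Kit, 1.29 CPM of Flt3 and 0.647 CPM of Csf1r, from 2 and 1 UMIs for the latter. The 94 dendritic-like cells had 61.2 CPM of Flt3 (40.3 to 89.1) and no Csf1r UMI, a combination that no monocyte-like cluster had. Many CMP clusters were led by immediate early and chemokine genes such as Egr1, Nr4a1 and Cxcl2, and cluster 4, where Kit was highest at 82.9 CPM, was one of them; the part of this response in the levels was not tested.

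Among the GMP classes of 50 or more cells, the monocyte-like cells had the highest Csf1r and the lowest Kit level. The 2216 monocyte-like cells had 34.8 CPM of Csf1r (32.3 to 37.6) and 21.7 CPM of Kit (19.7 to 23.9). Csf1r reached 38.6 CPM in monocyte-like cluster 3 and fell to 3.75 CPM in unnamed cluster 11. Leading genes of cluster 11 were Hsd11b1, Wfdc21 and Clec4a2, followed by the granule genes Fcnb and Pglyrp1. The 795 granulocyte-monocyte progenitor-like cells were intermediate, with 16.3 CPM of Csf1r and 34.7 CPM of Kit, and the 253 basophil/mast-like cells had 4.51 CPM of Csf1r and 53.4 CPM of Kit (41.7 to 67.4), the highest Kit level among the 15 larger GMP clusters. Unnamed cluster 9, led by Ly6c2 and Cybb, had both, with 34.8 CPM of Csf1r and 43.8 CPM of Kit. Flt3 stayed at 9.98 CPM or less in each GMP cluster of 50 or more cells. The 36 neutrophil-like cells, led by Ngp, Ltf and Camp, had no UMI of any of the receptors, which at a floor of 3 counts allows up to 22.5 CPM each.

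In MEP only Kit was found in the erythroid-like and megakaryocyte-like cells, at 45.5 CPM (43.9 to 47.1) in 5245 and at 66.7 CPM (52.2 to 84.0) in 211 cells. Kit was highest in erythroid-like cluster 17, of 73 cells and led by Tmem56, Tfrc and Rhag, at 96.2 CPM (70.7 to 128). The lowest Kit levels lay in clusters with globin transcripts. In cluster 7, led by Hba-a1 and other globin genes and with 703 CPM of Hba-a1, Kit was at 16.1 CPM, and in cluster 16, with 370 CPM of Hba-a1, Kit was at 29.2 CPM. Cluster 18, of 53 cells and 183 CPM of Hba-a1, had 14.6 CPM of Kit (3.99 to 37.5) from 4 UMIs. The 480 cells of unnamed cluster 5 and the 729 cells of cluster 1 had 70.5 and 55.1 CPM. Among thinned cells, 1.26% of cluster 7 and 11.0% of cluster 5 had a Kit UMI. All 6 Flt3 UMIs of the clustered MEP cells lay in cluster 19, which had 32 cells, 39.1 CPM of Flt3 and 71.7 CPM of Kit. It was left unnamed; its leading genes were Jchain at 1492 CPM, Tcf7 at 385 CPM and Cd7 at 443 CPM, which are known from lymphoid cells and from plasmacytoid dendritic cells.

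Detection of several receptors in one cell was then counted over cells without doublets. In LSK, 19.9% of cells had UMIs of both Kit and Flt3 and none of Csf1r, 25.4% had Kit alone and 25.1% had Flt3 alone. In CMP, 719 of 3603 cells had Kit alone, 13.4% had Flt3 alone and 4.33% had Csf1r alone, and all pairs were seen: 5.05% with Kit and Flt3, 2.14% with Flt3 and Csf1r and 1.22% with Kit and Csf1r. In GMP, Csf1r alone was in 10.8% of cells and Kit alone in 21.1%, with both in 3.17%. In MEP, 41.0% of cells had Kit alone. These shares are unthinned, and cells with all 3 receptors were deeper than their gate, with a median of 12476.5 UMIs for the 18 such cells of LSK.

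At equal depth, Kit and Flt3 met in LSK slightly less often than the product of their separate shares, and the other pairs were too rare for a firm value. In LSK cells thinned to 2000 UMIs, 3.43% had both Kit and Flt3 (3.08 to 3.80) against a product of shares of 3.92%, a ratio of 0.875; at 4000 UMIs the ratio was 0.879. In CMP at 4000 UMIs, Flt3 and Csf1r were found together in 1.08% of cells (0.737 to 1.52) against a product of 0.696%, and Kit and Csf1r in 0.404% (0.209 to 0.704) against 0.811%. Those CMP ratios rest on 32 and 12 cells and were 1.09 and 0.935 at 2000 UMIs, with 6 and 7 cells. In GMP at 4000 UMIs, Kit and Csf1r met in 0.785% of cells (0.592 to 1.02) against a product of 0.926%.

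**Figure D3:**
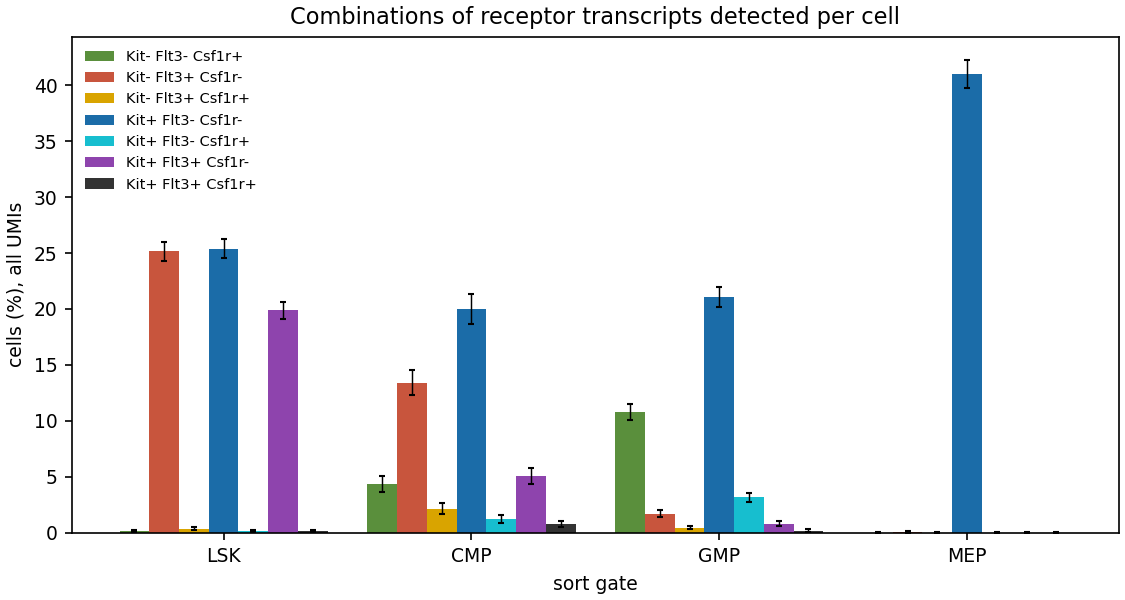
Share of cells (vertical axis, %) with each combination of Kit, Flt3 and Csf1r transcripts in the 4 gates, from all UMIs of cells without doublets; a plus sign means at least 1 UMI, cells with none of the 3 are left out, and bars carry 95% Clopper-Pearson intervals. Kit with Flt3 is the most common pair in LSK at 19.9%, Csf1r alone reaches 10.8% in GMP, and in MEP the 41.0% of cells with Kit alone are nearly all cells with any receptor UMI.

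Partner genes placed the receptors within each gate. For 20 partners, the receptor level was compared between thinned cells with and without a UMI of the partner. In LSK, Flt3 had 234 CPM in cells with Dntt, the terminal transferase of lymphoid precursors, and 107 CPM in cells without it, and 390 against 130 CPM for Il7r, the interleukin 7 receptor. It was lower in cells with Slamf1, an HSC antigen (38.8 against 132 CPM), with Gata2 (75.4 against 140 CPM) and with Pf4, a platelet chemokine (74.8 against 137 CPM). Kit went the other way for Dntt, with 80.4 CPM in cells with it and 115 CPM in cells without it. Kit had 126 CPM with and 95.7 CPM without Hlf, which encodes a transcription factor of stem cells. In LSK the intervals lay above 0 for 5 and below 0 for 8 of the 20 partners of Flt3, and above 0 for 4 and below 0 for 5 of those of Kit.

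Csf1r in LSK rested on few molecules but had partners. Of the 28 UMIs left after thinning, 17 lay in the 1672 cells with Cd48 (5.08 CPM) and 11 in the 8253 cells without it (0.667 CPM). Cells with Irf8, a factor of monocytes and dendritic cells, had 5.16 CPM against 1.14 CPM, and cells with Hlf had 0.610 CPM against 1.97 CPM.

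In CMP, cells with and without Irf8 differed for all 3 receptors. Cells with Irf8 had 68.1 CPM of Flt3 against 19.2 CPM in those without, a log2 difference of 1.83 (1.44 to 2.22). For Csf1r the values were 20.8 and 3.44 CPM, a difference of 2.60 (1.75 to 3.55), and for Kit 39.4 and 65.0 CPM, a difference of -0.72 (-1.04 to -0.41). Gata2, a factor of stem, mast and megakaryocytic cells, went the opposite way: Flt3 had 4 UMIs in 510 cells with it, 3.92 CPM, and 46.3 CPM in cells without it, whereas Kit had 75.5 and 50.4 CPM.

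In GMP, Csf1r was again higher with Irf8, at 28.7 against 8.80 CPM, and with Ly6c2, a monocyte antigen, at 20.6 against 9.70 CPM. Flt3 was lower with Ly6c2, at 2.54 against 9.07 CPM, and with Fcgr3, at 1.64 against 5.03 CPM. Kit was lower with Irf8, at 31.5 against 44.2 CPM. In MEP no partner gave Kit an interval away from 0.

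**Figure D4:**
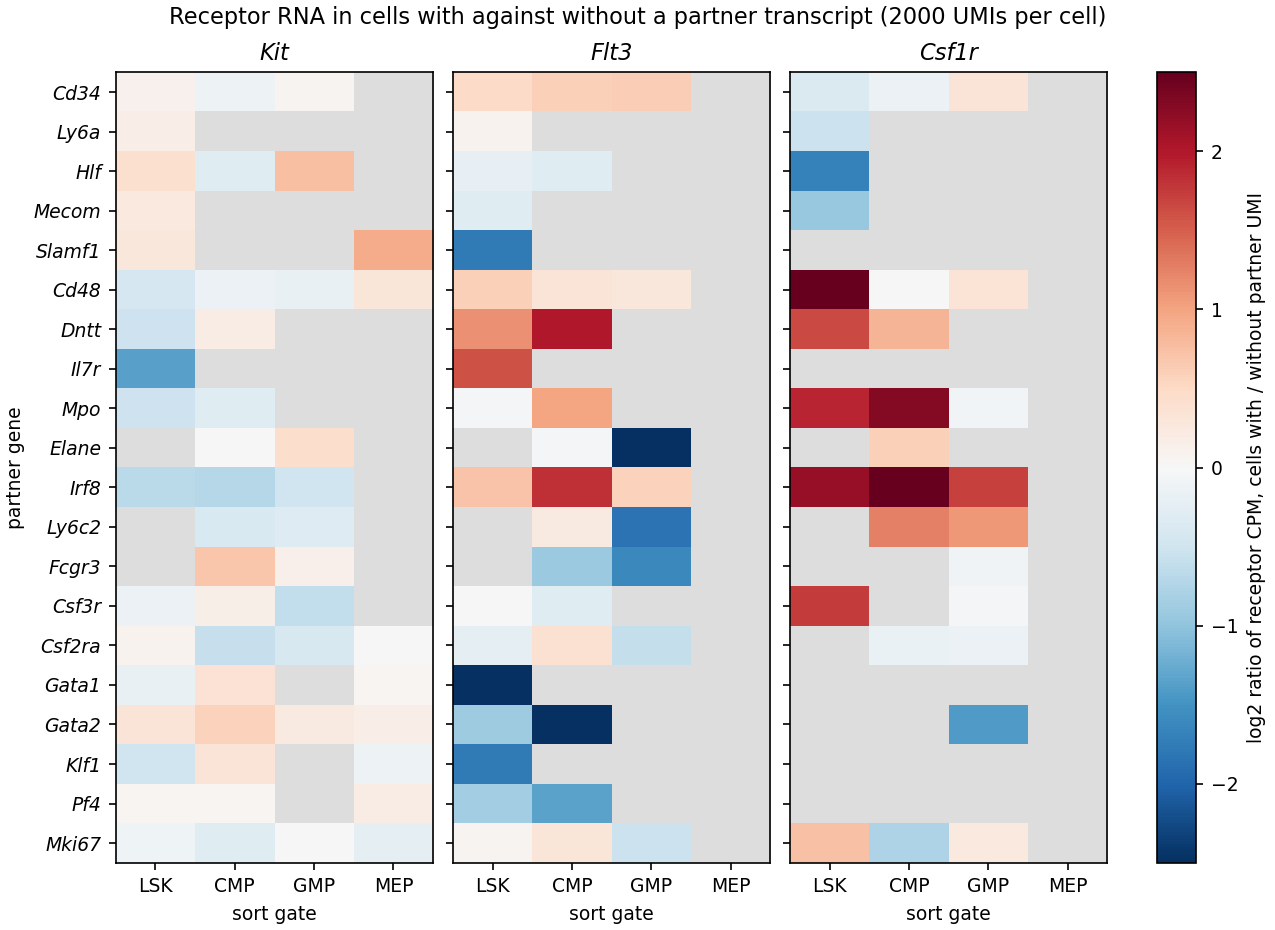
Log2 ratio of receptor CPM between cells with and without a UMI of each of 20 partner genes (rows), in the 4 gates (columns), for cells thinned to 2000 UMIs; red is higher with the partner, blue lower, colours stop at 2.5 in either direction, and grey marks fewer than 20 receptor UMIs or fewer than 50 cells with the partner, or no ratio. Irf8 is red for Flt3 and Csf1r and blue for Kit in LSK, CMP and GMP. For Flt3 in GMP, however, the interval lay above 0 for 0 of the 20 partners, Irf8 included. Single fields with few UMIs are imprecise.

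Genes with the most similar pattern over the 67 larger clusters were named for each receptor by Spearman's rho among 4912 genes. These rho are descriptions over clusters that share libraries and depth. For Kit they were Spns2, a lipid transporter (0.908), Kmt2a, a histone methyltransferase (0.886), H2-Q6 (0.884), Cfap97 (0.883) and Ogt, the O-GlcNAc transferase (0.873). Kit itself had a rho of -0.464 with the median depth of the clusters, and H2-Q6 has near-identical copies between which counting can split reads. For Flt3 they were the receptor gene Gpr171 (0.956), Lsp1, an actin-binding protein of leukocytes (0.953), Cd34 (0.945), Wfdc17 (0.943) and Phf11b (0.943). Cd34 is also a gate antigen that MEP cells lack by the sort. For Csf1r they were the protease inhibitor gene Slpi (0.906), Anxa3 (0.902), Ly86 (0.902), the coagulation factor gene F13a1 (0.890) and Atp8b4 (0.888); Ly86 and F13a1 were also among the markers that named monocyte-like clusters. The receptors themselves were less alike, with rho of 0.435 between Kit and Flt3, 0.351 between Flt3 and Csf1r and -0.407 between Kit and Csf1r. Flt3 had a rho of -0.373 with the median depth of the clusters. Neither Flt3 nor Csf1r had a UMI in any of the 18 larger MEP clusters. Csf1r also had none in 6 LSK and 2 CMP clusters, so the rho of both rest partly on tied values.

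Ligand transcripts were scarce in the same cells. Kitl had 5, 2, 1 and 1 UMIs in LSK, CMP, GMP and MEP, and Il34 had none in any library. Flt3l was at 5.96 CPM in LSK, 3.05 CPM in CMP, 1.05 CPM in GMP and 5.57 CPM in MEP, so that MEP, which all but lacked Flt3, had the ligand at nearly the LSK level. Csf1 was at 2.20, 1.003, 1.44 and 0.0747 CPM.

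Of the relatives in the same receptor class, Pdgfra had no UMI in any library. Pdgfrb, which lies 15536 bases before Csf1r on the same strand, was at 15.02 CPM in LSK, 16.01 CPM in CMP, 3.61 CPM in GMP and 1.18 CPM in MEP. It was thus high in LSK, where its neighbour Csf1r was at 1.32 CPM, and low in GMP, where Csf1r was highest. The other gates did not share this contrast: in CMP, where Pdgfrb was highest, Csf1r was at 13.4 CPM, and both genes were lowest in MEP. Among the 16 other receptor tyrosine kinases of blood and vessel cells none reached 50 CPM. Igf1r came closest, with 49.8, 36.8, 33.4 and 29.6 CPM, Insr had 12.2, 6.24, 6.38 and 4.40 CPM, and Tie1, an endothelial receptor gene, had 14.8, 2.90, 1.59 and 0.224 CPM. Met had the order of Csf1r, with 0.333, 2.75, 9.08 and 0.0125 CPM.

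Of 74 listed genes of all roles, 13, 13 and 15 reached 50 CPM in the contrasts of LSK with CMP, GMP and MEP, and only these could pass the rule. Of the 13 against CMP, 4 were higher in LSK and 0 in CMP, beside 6.12% and 2.72% of all genes. Of the 13 against GMP, 6 were higher in LSK and 1 in GMP, beside 13.3% and 7.49%, and of the 15 against MEP, 8 were higher in LSK and 2 in MEP, beside 16.4% and 13.5%. With TMM or median-of-ratios factors, 2 of the 4, 6 of the 7 and 8 of the 10 calls remained 2-fold. Those lost were Pik3r1 and Lmo2 against CMP, with log2 ratios of 1.14 and 1.09 that became 0.83 and 0.78 with TMM; Grb2 against GMP, with 1.15 and 0.70; and Ptpn6 and Lmo2 against MEP, with 1.31 and 1.30 that became 0.87 and 0.86. Among the 23 adaptors and effectors, Pik3r1, Grb2 and Vav1 were called higher in LSK with library totals. Pik3r1, the regulatory subunit of PI3-kinase, passed the rule against each other gate. It was at 113.5 CPM in LSK and 51.4, 36.9 and 35.3 CPM in CMP, GMP and MEP. Grb2 passed it against GMP, at 142 and 64.0 CPM, and Vav1 against MEP, at 53.1 and 15.5 CPM. Hras was highest in MEP, at 126 CPM against 24.3 to 40.9 CPM elsewhere. Of the 17 negative regulators, only the phosphatase gene Ptpn6 reached 50 CPM in the contrasts of LSK; it passed the rule against MEP, with 143 CPM in LSK and 57.6 CPM in MEP, on library totals alone. The lipid phosphatase gene Inpp5d had 49.3, 37.4, 19.3 and 17.1 CPM. Below 50 CPM, the docking proteins Dok2 and Dok3 went opposite ways between LSK and GMP, while both were low in MEP. Dok2 was at 46.5, 18.8, 3.12 and 6.47 CPM and Dok3 at 4.82, 20.6, 45.5 and 0.424 CPM. Neither shedding protease, Adam10 or Adam17, passed the rule.

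Of 10 listed transcription factors known to act at these genes, 8, 8 and 9 reached 50 CPM in the contrasts of LSK with CMP, GMP and MEP. Meis1 was at 151 CPM in LSK and 38.0, 6.86 and 5.51 CPM in CMP, GMP and MEP, and Hoxa9 at 97.6, 27.6, 18.7 and 12.3 CPM, each with its highest level in LSK as for Kit and Flt3. Lmo2 was at 902 CPM in LSK against 422, 285 and 368 CPM, past the rule in each contrast with library totals and only against GMP with the other factors. Spi1, which encodes PU.1, an activator of Csf1r, had 156, 223 and 251 CPM in LSK, CMP and GMP and 6.03 CPM in MEP, and Cebpa had 31.0, 60.2, 70.7 and 0.984 CPM, the order of Csf1r. Myb differed little, with 138, 128, 169 and 153 CPM. Gata1 was highest in MEP at 125 CPM, and Gata2 was at 70.2, 63.2, 12.5 and 39.9 CPM. Runx1 was at 72.1, 106, 62.3 and 19.9 CPM and Tal1 at 40.1, 18.6, 6.68 and 78.8 CPM, orders that no receptor had. Among the lineage-restricted gates, 10, 13 and 11 listed genes reached 50 CPM for CMP against GMP, CMP against MEP and GMP against MEP. Of the 10, 1 was higher in CMP and 0 in GMP, beside 4.03% and 2.92% of all genes that reached 50 CPM. Of the 13, 3 were higher in CMP and 3 in MEP, beside 11.3% and 10.5%. Of the 11, 3 were higher in GMP and 4 in MEP, beside 12.2% and 12.1%.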

How the data were processed

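Sorted bone marrow cells of 4 gates were profiled with the 10x Genomics 3' kit, per the labels' protocols. The authors deposited raw UMI counts, in whole numbers for each barcode and gene. Software listed in the submitters' processing notes is Seurat 2.3.0, Cell Ranger 2.0.0 and CASAVA 1.8.2, with mm10 as build; no label gives a filter on cells. The 3' end of a transcript is counted, so levels do not scale with gene length, and levels of different genes were not tested against each other. Strand use in counting is not given.

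The LSK matrix held 737280 barcodes; those with 2110 or more UMIs were taken as cells, 10883 in all where the design text states 10882. The CMP matrix held 3738 barcodes where 12185 cells are stated. Both CMP samples had this same matrix, so the rest of the stated cells were in neither and could not be analysed here. Of the barcodes taken in each gate, cells needed 500 genes and no more than 10% of UMIs from mitochondrial genes. UMIs were summed per library or cluster and divided by its total (CPM), doublets included for libraries. For clusters, combinations and partners, doublets were removed by a score against simulated pairs (0.8% per 1000 cells, which took 945 LSK, 110 CMP, 515 GMP and 316 MEP cells). Clusters came from 2000 variable genes without the receptors, 30 principal components, 15 neighbours and Leiden at resolution 1 (leidenalg 0.10.2, scikit-learn 1.9.0). A cluster was named where 3 or more markers of a class had 10 CPM and 2-fold over all other cells. The class also had to lead the next by a mean of 0.3 (log2 of CPM + 1). More of its markers than of another class had to stand among the 10 leading genes. Where these held no marker at all, the mean had to reach 1, a set share of the listed markers of the class had to be raised, and clusters far shallower than their gate were left unnamed. So LSK cluster 7, with 8 HSC/multipotent markers raised, was named, and cluster 14, with 7, was not. Of 114 listed markers, 111 are in the matrices.

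Intervals are exact Poisson, conditional binomial and Clopper-Pearson at 95%, covering counting error only; a count under 3 was set to 3 in ratios. Alternatives were TMM (edgeR 4.0.16) and median-of-ratios factors, other cell sets, thresholds, thinning and clustering. The calculation was tested on simulated data. Named genes were the members, their ligands and relatives, up to 4 genes per role with the highest CPM and the partners. The 5 genes nearest each member and the extreme clusters per gate were also named. Vav1, Hoxa9, Cebpa, Runx1, Tal1, the gate antigens, leading genes of clusters and clusters other than the extremes were named after their values were seen. 1 gene that the rule takes is not reported here. The members and lists were chosen with earlier results of these data known.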

Additional observations from a re-analysis of the deposited data

Results flagged for a closer look

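Signal of the receptors was also present in LSK barcodes that the comparisons did not use. The 2756 barcodes with 500 to 2109 UMIs, below the limit taken for cells, held Kit at 118 CPM (104 to 134), Flt3 at 98.3 CPM (85.5 to 113) and Csf1r at 3.26 CPM (1.31 to 6.72). Each level lies above the floor of 3 counts there, 1.40 CPM, though the interval of Csf1r reaches below it. In the LSK barcodes taken as cells, the levels were 101, 131 and 1.32 CPM, and in those with 1 to 100 UMIs they were 88.2, 119 and 0.848 CPM. Hlf had 338 CPM in the barcodes between, 269 CPM in the cells and 192 CPM in the lowest barcodes. Whether these barcodes hold small cells was not tested.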

How the results depend on the processing

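Of the 18 ratios of the receptors between libraries, all but that of Kit in CMP against MEP kept their direction under every alternative run; that one, at -0.002 with an interval across 0, was 0.011 with doublets left out and 0.017 for the mean over cells. Also, the mean over cells gave no ratio of Csf1r against MEP, where no cell had a UMI. TMM and median-of-ratios factors moved the ratios that involve LSK or CMP most. For LSK against CMP, GMP and MEP, the log2 ratio of Kit became 0.79, 1.08 and 0.67 with TMM and 0.73, 0.99 and 0.58 with median-of-ratios factors, so that Kit passed the 2-fold rule only against GMP with TMM and nowhere with the others. Flt3 became 1.40 and 4.57 (TMM) and 1.34 and 4.47 (median-of-ratios) against CMP and GMP and stayed past the rule. Csf1r became -3.72 against CMP with median-of-ratios factors, -4.33 and -4.42 against GMP, and 4.70 and 4.62 against MEP. Kit in CMP became 0.29 and 0.26 against GMP and -0.12 and -0.14 against MEP. The mean over cells of CPM per cell gave 1.62 for Kit in LSK against GMP, 0.54 in CMP against GMP and -0.52 in GMP against MEP; 9.27, 7.48 and 4.26 for Flt3 in LSK, CMP and GMP against MEP; and -0.80 for Csf1r in CMP against GMP. Every barcode, cells with 4000 or more UMIs and doublets left out moved no ratio beyond its interval. Genes past the rule numbered 270, 656, 1000, 195, 678 and 745 for LSK against CMP, GMP and MEP, CMP against GMP and MEP, and GMP against MEP; a ratio of 1.5 gave 770, 1319, 1798, 447, 1321 and 1349, a minimum of 10 CPM gave 1123, 2073, 2738, 578, 1851 and 1909, and median-of-ratios factors gave 996 and 1543 for LSK against GMP and MEP. Of these genes, the part higher in CMP than in GMP was 57.9%, and 46.1% and 43.5% with TMM and median-of-ratios factors; for CMP against MEP it was 51.8%, and 40.5% with the latter.

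Thinning to 4000 UMIs raised the shares by construction, and Kit was then in 32.8, 16.7, 12.6 and 18.1% of LSK, CMP, GMP and MEP cells, with overlapping intervals for CMP and MEP. With other clustering, levels of named classes moved beyond their interval in 7 of 36 cases with 15 principal components and in 10 of 30 at resolution 0.5. At resolution 2 they moved in 5 of 36 cases, and with doublets kept in 7 of 36. Flt3 in megakaryocyte-like LSK cells was at 42.0 CPM with 15 principal components. In basophil/mast-like CMP cells it was at 5.47 CPM with doublets kept, against 18.2 CPM. Of the 5 genes nearest Kit, Flt3 and Csf1r, 3, 2 and 3 were shared by Pearson's r and 3, 4 and 2 at resolution 2. No paired analysis was possible because each gate was 1 library. Depth limits the rare transcripts, with 99 UMIs of Csf1r in LSK and 6 of Flt3 in MEP. The calls of listed pathway genes under TMM and median-of-ratios factors were added after seeing the data.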

Other observations

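Ligand and relative transcripts were uneven among the classes. Csf1 was at 26.3 CPM (18.3 to 36.6) in the 253 basophil/mast-like GMP cells, from 35 of the 106 UMIs of the library, and at 0.610 CPM in the 2216 monocyte-like GMP cells, which had the highest Csf1r of the larger GMP classes. Flt3l had 14.8 CPM (9.35 to 22.1) in LSK cluster 13, where Flt3 was at 12.2 CPM, and 3.26 CPM in the lymphoid-primed-like LSK cells, where Flt3 was at 213 CPM. Pdgfrb was at 25.8 CPM in the basophil/mast-like CMP cells, 9.88 CPM in the monocyte-like CMP cells and 0.855 CPM in the erythroid-like MEP cells. These values were chosen after they had been seen.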
